A study of Homo sapiens with 9 samples.

Results

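The UGT2B genes encode enzymes that attach glucuronic acid to androgens and other small molecules, and 7 of them (UGT2B4, UGT2B7, UGT2B10, UGT2B11, UGT2B15, UGT2B17 and UGT2B28) were followed here in prostate cancer cells. They were chosen by symbol, as 7 of the 28216 gene rows of the count table. Poly(A) RNA was sequenced from 9 libraries, 3 in each of 3 groups. PC3 cells grew without treatment in F12K medium with serum. LNCaP cells (clone FCG, per the study's methods) spent 24 h in RPMI without phenol red and with charcoal-stripped serum, and then received either 10 nM dihydrotestosterone (DHT) or its vehicle, 0.01% ethanol, for 48 h. The labels give the genotype of all cells as WT and name the androgen as DHT, whereas the main text of the study describes a synthetic androgen. Both lines come from metastases of prostate cancer, and each stands for 1 line only, so a difference between PC3 and LNCaP libraries includes the line, the medium and the serum, which cannot be told apart. The labels do not say whether the 3 libraries of a group came from separate cultures, and the p-values then measure only the spread between these libraries.

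UGT2B proteins sit in the membrane of the endoplasmic reticulum and use UDP-glucuronic acid to make steroids, bile acids and drugs water soluble, which ends the action of a steroid hormone and prepares it for export. UGT2B15 and UGT2B17 are the main enzymes for DHT, testosterone and their metabolites in the prostate, and androgen is known to lower both transcripts in LNCaP cells. UGT2B28 also accepts androgens, UGT2B7 and UGT2B4 are best known from the liver, where they handle bile acids, oestrogens and opioids, UGT2B10 attaches glucuronic acid to the nitrogen of drugs such as nicotine, and UGT2B11 has few well established substrates.

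The 7 genes are close copies of each other, so the letters that set them apart decide which reads can be counted. The lines below show the same 74 bases of coding sequence in each gene, a length equal to that of the reads, taken from hg38 with the GENCODE 44 annotation at the earliest place where the 7 coding sequences align without a gap. The stretch lies in exonic coding sequence close to the start codon. Capitals mark the positions at which the 7 genes do not all have the same base, and each sequence is read 5′ to 3′ on the gene's own strand.
UGT2B17 (chr4:68568386-68568459, minus strand): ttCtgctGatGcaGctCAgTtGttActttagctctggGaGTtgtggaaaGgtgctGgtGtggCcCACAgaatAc
UGT2B15 (chr4:68670520-68670593, minus strand): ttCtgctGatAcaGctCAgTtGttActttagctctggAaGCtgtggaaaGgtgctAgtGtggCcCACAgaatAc
UGT2B10 (chr4:68816042-68816115, plus strand): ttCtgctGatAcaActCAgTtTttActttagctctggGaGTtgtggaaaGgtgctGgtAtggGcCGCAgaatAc
UGT2B7 (chr4:69096546-69096619, plus strand): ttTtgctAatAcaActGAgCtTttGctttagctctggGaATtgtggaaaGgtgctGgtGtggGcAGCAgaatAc
UGT2B11 (chr4:69214624-69214697, minus strand): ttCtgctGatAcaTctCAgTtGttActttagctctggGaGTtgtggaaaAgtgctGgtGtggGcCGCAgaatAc
UGT2B28 (chr4:69280526-69280599, plus strand): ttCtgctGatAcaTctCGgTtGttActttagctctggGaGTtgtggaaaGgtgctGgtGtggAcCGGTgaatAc
UGT2B4 (chr4:69495763-69495836, minus strand): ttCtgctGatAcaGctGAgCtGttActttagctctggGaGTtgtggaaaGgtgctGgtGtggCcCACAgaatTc
In this stretch UGT2B17 and UGT2B15 differed at 4 of 74 bases and UGT2B11 and UGT2B28 at 5, whereas UGT2B7 and UGT2B15 differed at 14.

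Over whole coding sequences, UGT2B11 and UGT2B28 were the closest pair with 97.0% identical positions, followed by UGT2B17 and UGT2B15 with 96.5% and UGT2B10 and UGT2B11 with 94.8%. UGT2B17 and UGT2B15 stood apart from the other 5 genes, with 83.9% to 85.4% identity.

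**Figure D1:**
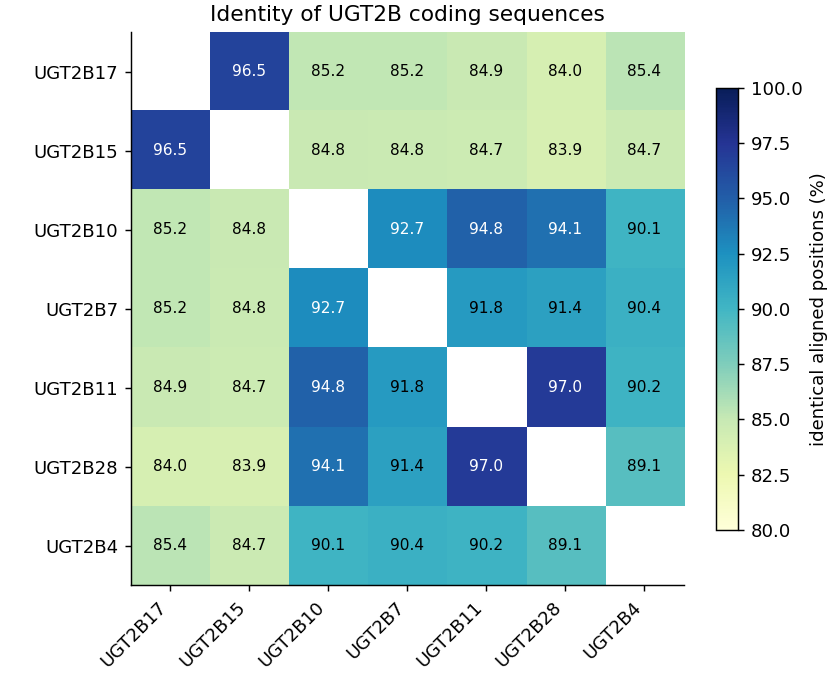
Percent identical aligned positions between the coding sequences of the 7 UGT2B genes (colour scale from 80% to 100%, genes in chromosomal order on both axes). The dark cells mark the pairs UGT2B17 with UGT2B15 (96.5%) and UGT2B11 with UGT2B28 (97.0%).

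Only reads with a single place in the genome enter these counts, so a read from a stretch shared letter for letter by several genes is left out rather than divided. Of all 74-nt stretches of their transcripts, UGT2B11 shared the most with other places in the genome (26.9%), followed by UGT2B15 (18.2%), UGT2B28 (15.0%), UGT2B17 (14.6%), UGT2B10 (12.9%), UGT2B7 (1.85%) and UGT2B4 (0.81%). UGT2B17 and UGT2B15 shared 375 stretches with each other, and UGT2B11 and UGT2B28 shared 93. Much of what UGT2B11 shared lay in pseudogenes such as UGT2B25P, with 253 stretches. A typical UGT2B28 stretch differed from its closest counterpart in UGT2B11 by a median of 2 bases, and a typical UGT2B15 stretch from UGT2B17 by 3. Reads of these pairs are therefore told apart by few letters, and counts of a low gene beside a high close copy are uncertain. In addition, 72.9% of UGT2B15 stretches and 84.7% of UGT2B10 stretches also lie on alternative contigs of hg38, and the sources used here do not say whether the authors' index held those contigs.

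The libraries held 17397706 to 25640325 counts on genes, and 7.19% to 9.36% of the reads mapped to several places. Values below are counts, and CPM, which are counts divided by library size after scaling by TMM factors over the 9 libraries. Summed markers differed between the lines in the direction of the labels. The 6 luminal prostate markers summed to 433 to 448 CPM in PC3, 2577 to 2944 with vehicle and 10269 to 11247 with DHT. The keratins KRT18 and KRT8 were at 282 and 129 CPM in PC3 and at 334 and 269 CPM with vehicle (group means). TMPRSS2 was at 23.7 to 38.5 CPM in PC3, and FOLH1 at no more than 0.277 CPM. KLK2 had 0 counts in all PC3 libraries, and KLK3, which encodes prostate-specific antigen, was at 2, 2 and 20 counts there against 504 to 702 CPM in vehicle-treated and 3969 to 4486 CPM in DHT-treated LNCaP libraries. Genes of the PC3 line (5 genes, VIM and CD44 among them) summed to 3859 to 4552 CPM in PC3 and to 16.1 to 40.1 CPM in LNCaP libraries, with the highest LNCaP value in DHT replicate 1. Liver markers were near the floor in every group, with a summed level of the 6 genes between 1.43 and 2.79 CPM, and APOA2 and FGB were at 0 in all LNCaP libraries. The 4 leukocyte markers summed to at most 0.551 CPM, and the 5 fibroblast markers to 37.3 to 48.2 CPM in PC3, 22.5 to 25.7 CPM in vehicle-treated and 12.3 to 15.4 CPM in DHT-treated libraries, with COL1A2 at 0 in both LNCaP groups. Their part in the results was not tested. Without DHT replicate 1 the log2 fold change with DHT, described next, was 5.07 for UGT2B11 and -6.02 for UGT2B17.

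DHT split the family. UGT2B17, UGT2B15 and UGT2B10 fell, UGT2B11 and UGT2B28 rose, UGT2B4 rose at a low level, and UGT2B7 stayed at a few counts with no detectable change. Of the 7 genes, 5 passed the filter (over 3 CPM in at least 3 of the 6 libraries) and all 5 were called, which means a Benjamini-Hochberg adjusted p under 0.05 together with at least a 2-fold change in edgeR's quasi-likelihood test. Across all 11697 genes tested, 14.0% were called, 6.54% as higher and 7.49% as lower. The count of 5 is a description, because UGT2B28 and UGT2B10 passed the filter only through the group in which each was high.

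UGT2B17 and UGT2B15, the principal androgen-conjugating enzymes, made up nearly all UGT2B counts in the vehicle libraries. UGT2B17 (chr4:68537173-68576413, minus strand) had 4641, 3917 and 5512 counts in the vehicle libraries and 69, 73 and 79 in the DHT libraries. All DHT values lay far below all vehicle values. This corresponds to 246 ± 32.6 CPM (SD, n = 3) and 3.56 ± 0.448 CPM (SD, n = 3), a log2 fold change of -6.11 (standard error, SE, 0.12, 69.3-fold lower, adjusted p = 1.95e-13, edgeR). Among the genes called lower it ranked 6 by size of the change. UGT2B15 (chr4:68646597-68670652, minus strand) had 2908, 2753 and 3530 counts with vehicle and 78, 100 and 71 with DHT. It dropped from 161 ± 15.9 to 4.0 ± 0.81 CPM (SD, n = 3), a log2 fold change of -5.33 (SE 0.11, 40.2-fold lower, adjusted p = 2.26e-13, edgeR).

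UGT2B10 (chr4:68815994-68832023, plus strand), the enzyme for nitrogen-containing drugs, fell less and from a lower level. Its counts were 92, 80 and 131 with vehicle and 34, 27 and 35 with DHT, and the groups did not overlap. The log2 fold change was -1.78 (SE 0.20, 3.44-fold lower, adjusted p = 3.14e-06, edgeR).

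UGT2B11 and UGT2B28, the closest pair in sequence, moved the opposite way. UGT2B11 (chr4:69199951-69214748, minus strand) had 188, 179 and 276 counts with vehicle and 11726, 7770 and 7412 with DHT. Every DHT library was above every vehicle library, and DHT replicate 1 held the most. The level went from 11.2 ± 2.41 to 427 ± 84.7 CPM (SD, n = 3), a log2 fold change of 5.25 (SE 0.16, 38-fold higher, adjusted p = 9.17e-12, edgeR). UGT2B28 (chr4:69280475-69295050, plus strand) had 27, 18 and 30 counts with vehicle and 4294, 3164 and 3098 with DHT. It rose from 1.31 ± 0.283 to 168 ± 20.8 CPM (SD, n = 3), a log2 fold change of 6.99 (SE 0.14, 128-fold higher, adjusted p = 3.03e-13, edgeR), the largest change of the family. Among the genes called higher, UGT2B28 ranked 14 and UGT2B11 ranked 33.

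LOC105377267 is a predicted gene taken to lie antisense to UGT2B11, though the annotation behind the counts is not given. It had 6, 1 and 4 counts in the DHT libraries and 0 in the vehicle libraries, and the counts used here keep the strands apart. In counts made without strand, 72.4% to 77.1% of the UGT2B11 counts of the LNCaP libraries were left. Whether reads in an overlap with the antisense gene were dropped was not tested.

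UGT2B4 and UGT2B7, the liver genes of the family, were under the filter. UGT2B4 (chr4:69480165-69526014, minus strand) had 14, 10 and 17 counts with vehicle and 44, 49 and 57 with DHT, with no overlap between the groups. In an edgeR fit without the filter its log2 fold change was 1.76 (SE 0.26, adjusted p = 2.17e-06). Its transcripts shared almost no stretch with other genes, as given above. UGT2B7 (chr4:69051363-69112987, plus strand) had 9, 3 and 8 counts with vehicle and 5, 11 and 5 with DHT. The groups overlapped, and the log2 fold change of -0.03 had an SE of 0.52 (adjusted p = 0.971, edgeR without the filter), so no difference was detectable at this depth.

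**Figure D2:**
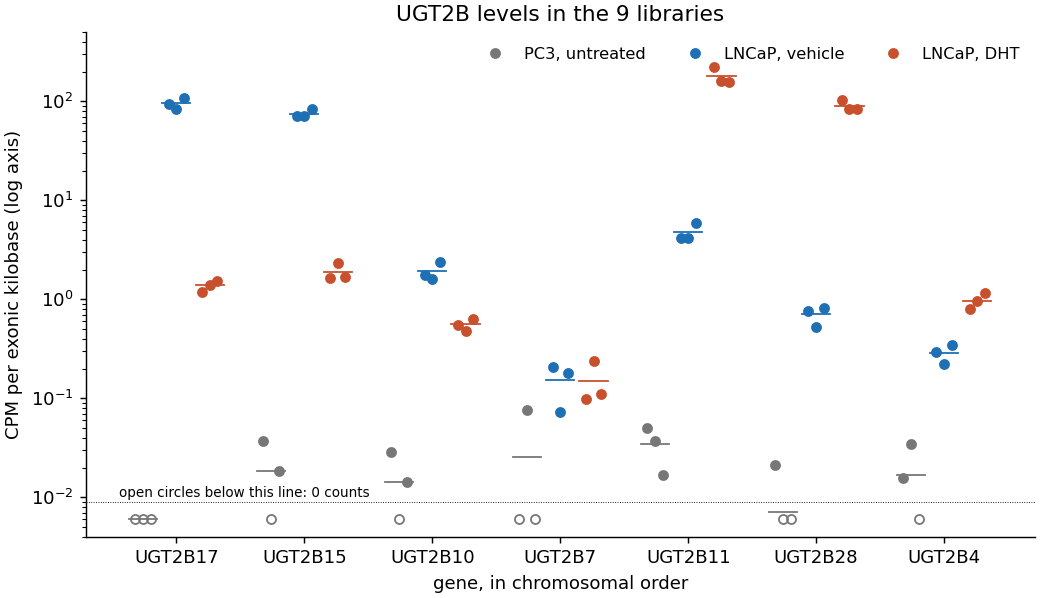
CPM per exonic kilobase (log axis) of each UGT2B gene in the 9 libraries, with 1 point per library, a line at the group mean and open circles at the bottom for libraries with 0 counts. Vehicle and DHT points of UGT2B17 and UGT2B15 are far apart in one direction and those of UGT2B11 and UGT2B28 in the other, UGT2B7 overlaps, and PC3 points lie at or near the floor.

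Levels of different genes were compared per exonic kilobase. With vehicle, UGT2B17 (95.7 ± 12.7 CPM per kilobase) and UGT2B15 (75.4 ± 7.45) led and their ranges overlapped. UGT2B11 (4.77 ± 1.02), UGT2B10 (1.92 ± 0.436), UGT2B28 (0.705 ± 0.152), UGT2B4 (0.287 ± 0.0635) and UGT2B7 (0.154 ± 0.0716) followed, all SD with n = 3, and no neighbours in this order overlapped. With DHT, UGT2B11 (181 ± 35.9 CPM per kilobase) and UGT2B28 (90.6 ± 11.2) led. UGT2B15 (1.88 ± 0.379), UGT2B17 (1.38 ± 0.174), UGT2B4 (0.973 ± 0.182), UGT2B10 (0.558 ± 0.0785) and UGT2B7 (0.150 ± 0.0782) came next, and the 3 libraries of each gene lay above those of the next. The order was the same in both groups when the length was counted only over stretches found nowhere else. The androgen-conjugating pair thus held the first 2 places with vehicle and places 3 and 4 with DHT.

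The summed UGT2B level was closer between the groups than the levels of its main members. It was 413, 382 and 483 CPM in the vehicle libraries and 728, 553 and 542 CPM in the DHT libraries. The lowest DHT library was above the highest vehicle library. The difference of the mean log2 sums was 0.51 (1.42-fold, two-sided exact permutation test over samples, p = 0.1, the smallest value that 3 against 3 libraries allow). Without DHT replicate 1 it was 0.37 (exact permutation test, p = 0.2). With counts made without strand, in which UGT2B11 had fewer counts, it was 0.21 (exact permutation test, p = 0.4). UGT2B17 and UGT2B15 together took 95.1% to 95.8% of the summed counts in the vehicle libraries and 0.905% to 1.55% in the DHT libraries. UGT2B11 and UGT2B28 together took 2.73% to 3.22% and 97.7% to 98.6%. These shares are of counts, which weigh longer genes more.

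**Figure D3:**
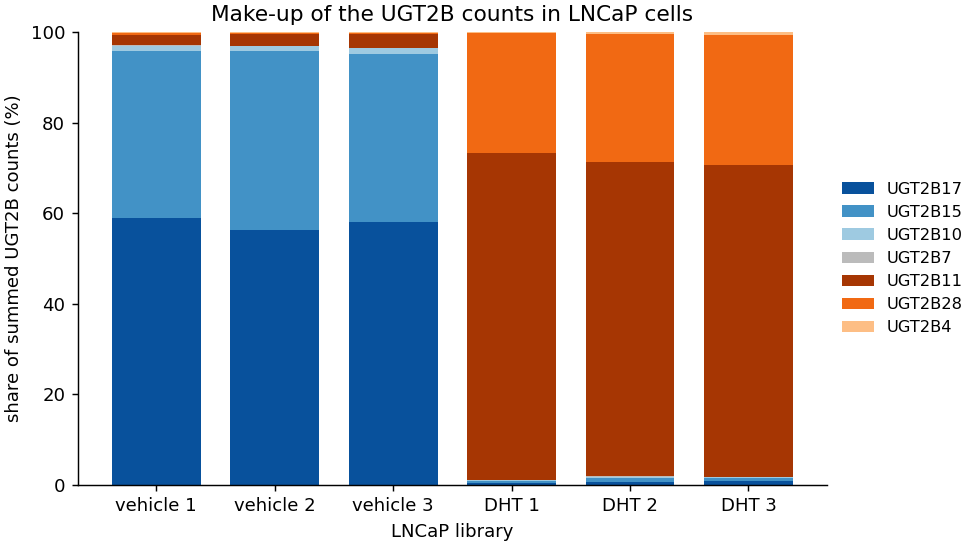
Share of the summed UGT2B counts (%) taken by each of the 7 genes in the 6 LNCaP libraries, as stacked bars from 0 to 100%. UGT2B17 and UGT2B15 fill 95.1% to 95.8% of the vehicle bars, and UGT2B11 and UGT2B28 fill 97.7% to 98.6% of the DHT bars.

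Within each close pair the ratio of the members differed between the groups without overlap. UGT2B17 had 1.60, 1.42 and 1.56 times the UGT2B15 counts in the vehicle libraries and 0.885, 0.730 and 1.11 times in the DHT libraries. The log2 ratio changed by -0.77 (exact permutation test, p = 0.1, again the smallest possible), with the larger fall in UGT2B17, a difference that 3 against 3 libraries cannot take past 0.05. UGT2B11 had 6.96, 9.94 and 9.20 times the UGT2B28 counts with vehicle and 2.73, 2.46 and 2.39 times with DHT, a log2 change of -1.74 (exact permutation test, p = 0.1), with the larger rise in UGT2B28. Only stretches shared letter for letter are left out of every library. Whether reads of 1 member were counted on its near copy, and to a different degree in the 2 groups, was not tested.

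The 7 genes lie in a cluster of 988.8 kb on chromosome 4 (hg38), and the direction of the response followed their order. UGT2B17, UGT2B15 and UGT2B10 sit at the centromeric end, UGT2B7 in the middle, and UGT2B11, UGT2B28 and UGT2B4 at the other end. Genes on the plus and on the minus strand were found among those that fell and among those that rose. This is a description of 7 genes in 1 region, with no test. The UGT2A genes of the same region were at the floor, UGT2A1 and UGT2A2 with 0 counts in all 9 libraries and UGT2A3 with at most 2. Next to UGT2B17 outside the cluster, TMPRSS11E, a membrane serine protease, had 37, 33 and 38 counts with vehicle and 79, 90 and 92 with DHT. Its log2 fold change was 1.14 (SE 0.16, adjusted p = 3.25e-05, edgeR), opposite in sign to that of UGT2B17. TMPRSS11E passed the filter only through its DHT libraries, so its value is a description. YTHDC1, a reader of methylated adenosine in RNA, came to 109 ± 2.68 and 95.3 ± 1.09 CPM (SD, n = 3), a log2 fold change of -0.19 that is under the fold change of 2. On the far side, SULT1B1, a sulfotransferase, had 0 counts in all vehicle libraries and 4, 4 and 2 with DHT. SULT1E1, the oestrogen sulfotransferase, had at most 2 counts in any library, and CSN1S1, CSN2 and STATH, genes of milk and saliva proteins, had 0 in all 9. TMPRSS11F and TMPRSS11B, beyond YTHDC1 on the other side, had at most 1 count in any library.

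**Figure D4:**
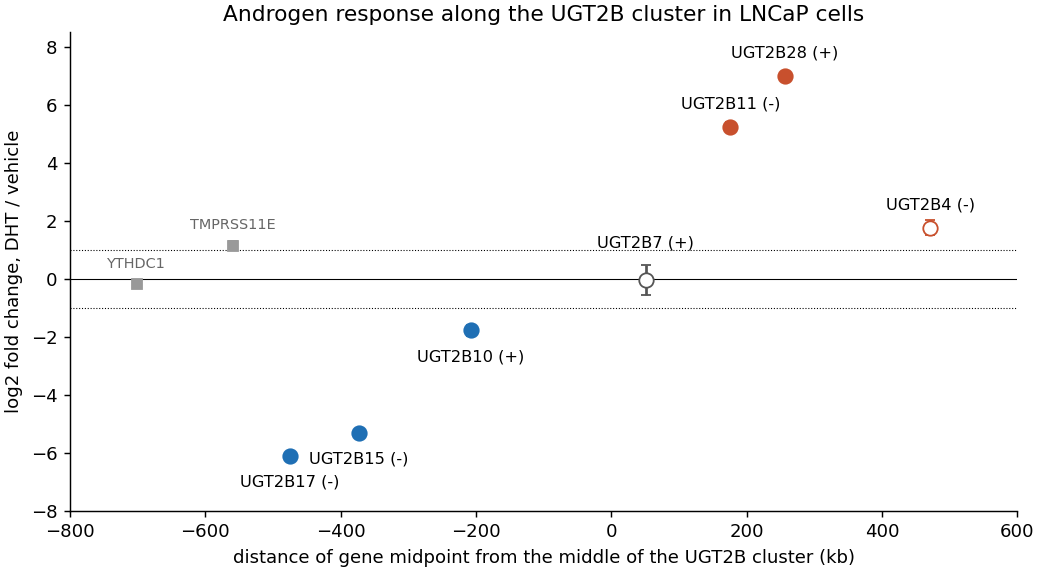
Log2 fold change of DHT over vehicle in LNCaP cells (vertical axis) against the distance of each gene's midpoint from the middle of the UGT2B cluster (kb), with the strand in brackets and bars of 1 standard error, which are smaller than the symbol for most genes. Filled circles are genes tested with the filter, open circles are UGT2B7 and UGT2B4 from the fit without it, grey squares are the neighbours TMPRSS11E and YTHDC1, and dotted lines mark a fold change of 2. The lowest value is -6.11 for UGT2B17 and the highest is 6.99 for UGT2B28. UGT2B4 lies furthest right, at 1.76, and the 2 neighbours lie to the left of UGT2B17.

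Promoter windows were taken from RefSeq (GRCh38.p14) for UGT2B15, UGT2B10, UGT2B7 and UGT2B11. They are shown because UGT2B10 and UGT2B11, which responded in opposite directions, have promoters with 90.2% identity over the 250 bases before the start, whereas UGT2B15 and UGT2B10, which both fell, have 69.0%. The lines give the 150 bases just before each start, read 5′ to 3′ on the gene's strand, and capitals mark matches to the motifs named after them.
UGT2B15 (chr4:68670653-68670802, minus strand): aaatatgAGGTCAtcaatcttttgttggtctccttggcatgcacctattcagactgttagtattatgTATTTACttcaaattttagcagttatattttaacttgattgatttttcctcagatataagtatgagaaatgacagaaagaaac
UGT2B10 (chr4:68815844-68815993, plus strand): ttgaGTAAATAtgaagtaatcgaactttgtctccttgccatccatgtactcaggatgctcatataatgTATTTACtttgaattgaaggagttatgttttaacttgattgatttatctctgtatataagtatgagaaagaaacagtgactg
UGT2B7 (chr4:69096324-69096473, plus strand): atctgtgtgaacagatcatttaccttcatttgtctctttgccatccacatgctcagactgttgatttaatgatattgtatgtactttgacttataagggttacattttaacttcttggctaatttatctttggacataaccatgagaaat
UGT2B11 (chr4:69214749-69214898, minus strand): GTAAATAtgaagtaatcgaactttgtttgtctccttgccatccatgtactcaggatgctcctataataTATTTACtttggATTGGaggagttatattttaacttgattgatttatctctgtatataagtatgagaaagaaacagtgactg
Both strands were searched for 7 motifs. These were TATTTAC and the related TGTTTAC, which forkhead factors bind, AGAACA, a part of the androgen response element, AGGTCA, a part of the sites of many nuclear receptors, GTTAAT, a part of the site of HNF1 factors, TATAAA, the core of the TATA box, and CCAAT, the letters of the CCAAT box. TATTTAC lay 83 bases before the start of UGT2B15 and 82 bases before the starts of UGT2B10 and UGT2B11, and 2.40% of all 35116 promoter windows of the same length hold it. UGT2B10 and UGT2B11 held a further copy on the other strand, at 146 and 150 bases. AGGTCA lay 143 and 217 bases before UGT2B15, 210 before UGT2B10 and 214 before UGT2B11 (12.1% of all windows). AGAACA was found in UGT2B15 alone, 172 bases before the start (12.4% of all windows), and TGTTTAC also in UGT2B15 alone, at 183 (2.98%). CCAAT was found in UGT2B11 alone, at 70 on the other strand (32.0%), TATAAA in UGT2B10 and UGT2B11 (10.7%), and GTTAAT in none of the 4 windows (6.23%). A match is a description of letters and not of binding.

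PC3 cells had almost no UGT2B RNA. The 7 genes together had 9, 8 and 3 counts in the PC3 libraries, against 6960 to 9504 with vehicle and 10757 to 16250 with DHT in LNCaP libraries. In bulk RNA, fewer cells with a transcript and less transcript per cell cannot be told apart. The difference of the mean log2 sums, PC3 minus LNCaP, was -10.2 with vehicle and -10.7 with DHT (two-sided exact permutation test over samples, p = 0.1 in both cases, the smallest possible).

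UGT2B17 had 0 counts in all 3 PC3 libraries. Against the limit of 3 counts over the 3 libraries, its level was at least 6067-fold higher with vehicle and at least 87.0-fold higher with DHT. UGT2B15 had 2, 0 and 1 counts in PC3, and the ratio of summed counts per library size was 3963 with vehicle (95% exact conditional counting interval 1356 to 19222) and 98.0 with DHT (33.2 to 478). UGT2B11 had 3, 2 and 1 counts in PC3, a ratio of 139 with vehicle (63.3 to 379) and 5296 with DHT (2433 to 14432). UGT2B28 had 1, 0 and 0 counts, a ratio of 97.0 with vehicle (16.9 to 3883) and 12465 with DHT (2237 to 4.92e+05). UGT2B10 had 2, 0 and 1 counts, a ratio of 131 with vehicle (44.3 to 637) and 37.8 with DHT (12.5 to 186). UGT2B4 had 1, 2 and 0 counts, a ratio of 17.7 with vehicle (5.64 to 89.2) and 59.0 with DHT (19.8 to 290). UGT2B7 had 0, 4 and 0 counts, the highest in PC3 replicate 2, and ratios of 6.47 (2.17 to 26) and 6.20 (2.09 to 24.8). These intervals cover counting error only and every one lies above 1.

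**Figure D5:**
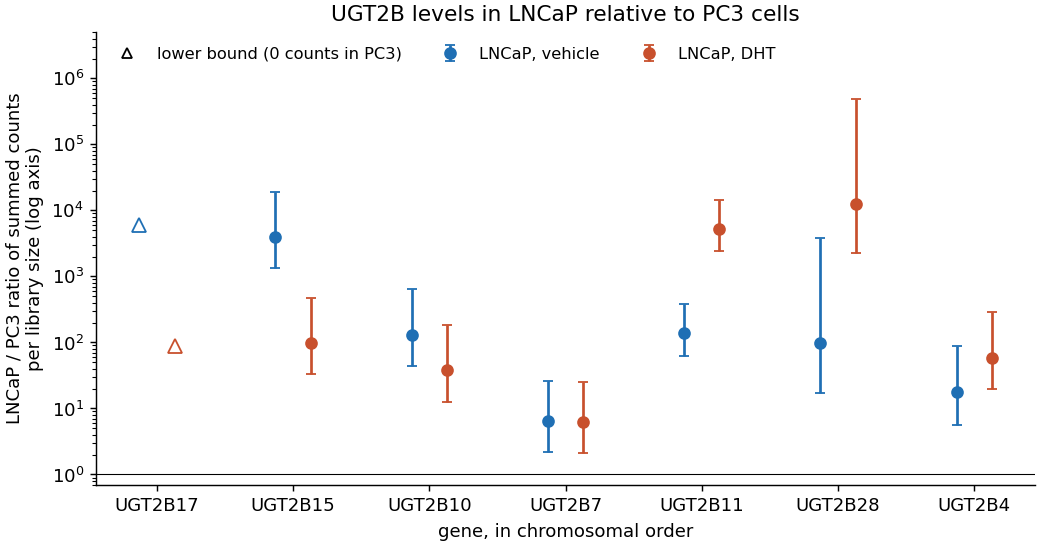
Ratio of LNCaP to PC3 summed counts per library size (log axis) for each UGT2B gene, with 95% exact counting intervals as bars. Open triangles are lower bounds for UGT2B17, which had 0 PC3 counts, and the ratios run from about 6 for UGT2B7 to 12465 for UGT2B28 with DHT.

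In edgeR's fit, UGT2B17, UGT2B15, UGT2B11 and UGT2B10 passed the filter against vehicle and were called lower in PC3, where 43.2% of all genes tested were called, 22.2% as higher and 21.0% as lower. Against DHT, UGT2B11, UGT2B28 and UGT2B15 passed and were called lower, where 46.0% of all genes were called, 24.0% as higher and 22.1% as lower. Each of these genes passed only through its LNCaP libraries, so it had to differ. The adjusted p-values ranged from 1.36e-08 for UGT2B15 to 2.25e-06 for UGT2B10 against vehicle, and from 1.79e-08 for UGT2B28 to 2.63e-06 for UGT2B15 against DHT (edgeR). Both comparisons use the same PC3 libraries. As a measure of LNCaP RNA in PC3 libraries, KLK2 had 0 counts in all 3, and KLK3 in PC3 was 0.00185%, 0.00205% and 0.0186% of its mean with DHT, and UGT2B11 in PC3 was 0.0276%, 0.0203% and 0.00924% of its own. In single PC3 libraries the shares of the DHT mean reached 0.0234% for UGT2B28, 1.97% for UGT2B15, 3.59% for UGT2B4, 5.11% for UGT2B10 and 51.2% for UGT2B7. These members had a lower LNCaP level with DHT than UGT2B11. Of its vehicle mean, KLK3 in PC3 was 0.0137%, 0.0152% and 0.138%. Single-library shares of the vehicle mean reached 0.0489% for UGT2B15, within the range of KLK3, and 1.49% for UGT2B10. They reached 1.05% for UGT2B11, 3.01% for UGT2B28 and 12.2% for UGT2B4, and UGT2B7 again had the largest share. TMPRSS2 in PC3 was 1.17% to 1.90% of its DHT mean and 12.8% to 20.8% of its vehicle mean. The part of LNCaP RNA in the PC3 counts was not tested. PC3 replicate 3 had the most KLK3 counts. UGT2B11 had 3, 2 and 1 counts in PC3 replicates 1, 2 and 3, too few to order the libraries.

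The other genes of the pathway were read by list. Of 15 other UDP-glycosyltransferases, 1 was tested between the LNCaP groups, UGT8, which makes galactosylceramide in myelin. It was called lower with DHT (log2 fold change -1.75, standard error 0.20, adjusted p = 4.03e-06, edgeR), beside 14.0% of all genes called. In PC3 it was called higher than with vehicle (2.04, adjusted p = 1.34e-05, edgeR) or with DHT (3.77, adjusted p = 3.61e-07, edgeR), beside 43.2% and 46.0% of all genes called. Its mean was low, at 3.79 CPM with vehicle and 1.12 with DHT. Between the LNCaP groups it passed the filter only through its vehicle libraries, and in PC3 against DHT only through its PC3 libraries. These calls are therefore a description. Of 9 genes that supply, transport or use UDP-glucuronic acid, 8 were tested with DHT, of which 1 rose and 0 fell beside 14.0% of all genes called, with a median log2 fold change of 0.41 beside -0.01 over all genes. The gene that rose was PGM2, a phosphopentomutase, at 97.2 ± 3.80 CPM with vehicle and 218 ± 3.75 with DHT (SD, n = 3; log2 fold change 1.17, adjusted p = 4.11e-11, edgeR). UGDH, which makes UDP-glucuronic acid, had a log2 fold change of 0.48 (adjusted p = 0.000242, edgeR), under the fold change of 2. In PC3, all 9 were tested, with 3 higher and 1 lower than with vehicle, and 2 higher and 2 lower than with DHT, so 4 of 9 were called in each, near the 43.2% and 46.0% of all genes. SLC35D1, a carrier of UDP-glucuronic acid into the endoplasmic reticulum, was at 9.98 ± 0.929 CPM in PC3 and 0.0175 ± 0.0303 with vehicle (SD, n = 3).

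Of 6 transporters that can export glucuronides, 3 were tested with DHT, of which 2 were called higher, beside 6.54% of all genes. The median log2 fold change of the 3 was 2.12, beside -0.01 over all genes. ABCC5, the other tested gene, was lower by less than 2-fold (log2 fold change -0.41, adjusted p = 9.00e-06, edgeR). ABCC4, an exporter of steroid conjugates and cyclic nucleotides, had 109, 131 and 118 CPM with vehicle and 787, 803 and 884 CPM with DHT (log2 fold change 2.79, adjusted p = 7.19e-13, edgeR). ABCC1, a broad exporter of glutathione and glucuronide conjugates, had a log2 fold change of 2.12 (adjusted p = 2.42e-12, edgeR). In both, the groups did not overlap. In PC3, ABCC3 was at 128, 105 and 273 CPM, against at most 0.157 CPM with vehicle, and 4 genes of the list were tested in each comparison, 1 higher and 1 lower than with vehicle, and 1 higher and 2 lower than with DHT, beside 43.2% and 46.0% of all genes called.

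Sulfation, the other route by which steroids are made soluble, gave no call with DHT in edgeR's test. Of 14 genes 8 were tested, 0 were called (6 had an unadjusted p under 0.05, and DESeq2 called 0), with a median log2 fold change of 0.25. In PC3 9 were tested, of which 1 was higher and 2 were lower in each comparison, no more than the share over all genes (43.2% and 46.0%). SULT1A1, a phenol sulfotransferase, was at 0.900 ± 0.124 CPM in PC3 and 34.9 ± 0.248 with vehicle, SULT2B1, a hydroxysteroid sulfotransferase, at 0.366 ± 0.0990 and 12.4 ± 0.847, and PAPSS2, which makes the sulfate donor, at 93.9 ± 23.5 and 0.192 ± 0.198 (SD, n = 3). Of 17 transcription factors known at UGT2B genes, 9 were tested with DHT and 0 were called (6 had an unadjusted p under 0.05, and DESeq2 called 0). Against vehicle, 10 were tested in PC3, of which 2 were higher and 3 lower, and against DHT 2 were higher and 2 lower. These 5 of 10 and 4 of 10 were close to the 43.2% and 46.0% of all genes called. FOXA2, a forkhead factor, had 71.4 ± 5.92 CPM in PC3 and 0.0699 ± 0.121 with vehicle, CEBPA, a basic leucine zipper factor, 0.817 ± 0.293 and 34.9 ± 2.09, and AHR, the dioxin receptor, 111 ± 18.8 and 5.97 ± 1.05 (SD, n = 3).

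Of 6 genes known to be raised by androgen, 5 were called higher with DHT, beside 6.54% of all genes. Their median log2 fold change was 3.81, beside -0.01 over all genes. The list was chosen for this response, with earlier results of these data known, so the count is a description. KLK2 went from 38.9 ± 9.81 to 697 ± 63.4 CPM, NDRG1 from 60.6 ± 17.6 to 1680 ± 170 CPM, and FKBP5 from 94.4 ± 5.01 to 2823 ± 117 CPM (SD, n = 3). In PC3, 5 of the 6 were lower and 1 was higher than with vehicle, beside 21.0% and 22.2% of all genes. Against DHT, 6 were lower, beside 22.1% of all genes. The rise of UGT2B28 thus exceeded that of FKBP5 (log2 fold change 4.90), NDRG1 (4.80) and KLK2 (4.17), by fitted values whose difference was not tested.

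Genes with the most similar pattern over the 9 libraries were found by Pearson's r of log2 CPM (with 0.5 CPM added) among 12838 genes outside the UGT2 family. The libraries fall in 3 groups, so such values mainly compare group means and are a description. For UGT2B17 these were CAMK2N1 (r = 0.999) and SLITRK3 (0.999), and for UGT2B15 SLITRK3 (0.998) and CAMK2N1 (0.998). SLITRK3, a synaptic adhesion protein, was at 102 ± 11.2 CPM with vehicle and 3.29 ± 0.814 with DHT, and CAMK2N1, an inhibitor of a calmodulin-dependent kinase, at 408 ± 5.37 and 52.9 ± 2.66 (SD, n = 3). UGT2B10 was closest to KLHL1 (0.996) and THAP7 (0.995), UGT2B11 to MESP1 (0.999) and SORD2P (0.998), and UGT2B28 to EIF3I (0.998) and NPPC (0.998). NPPC, which encodes C-type natriuretic peptide, was at 0.629 ± 0.118 CPM with vehicle and 25.7 ± 3.17 with DHT. Pearson's r does not measure the size of a change. EIF3I was at 372 ± 4.22 CPM with vehicle and 642 ± 21.7 with DHT (SD, n = 3). THAP7 was at 33.3 ± 1.72 CPM with vehicle and 25.6 ± 1.40 with DHT (SD, n = 3). Between 435 and 914 genes had an r over 0.95 with a given member.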

How the data were processed

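RNA-seq libraries (poly(A) selection, 74 nt reads) of PC3 and LNCaP cells were analysed. The authors trimmed adapters, aligned reads to hg38, removed PCR duplicates and mapped again. The submitters' processing notes list cutadapt 4.1, STAR 2.7.7a and UMI-tools 1.1.2, and the study's methods give other versions of cutadapt and STAR. The deposited counts are raw whole numbers of uniquely mapped reads for each gene symbol, given as a table and as STAR's output per library. The table's 253944 values all equal the forward-strand column. Of all reads, 20.3% to 25.4% were not counted on a gene, which includes reads that mapped to several places. The gene annotation they used is not given in the sources used here. No column was left out (0 unused).

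Genes with more than 3 CPM in at least 3 libraries of a comparison were kept, following the study's filter. TMM factors and the quasi-likelihood F test of edgeR 4.0.16 (R 4.3.3) were applied to the 6 libraries of each comparison, with Benjamini-Hochberg adjustment over all genes tested and a call at an adjusted p under 0.05 together with at least a 2-fold change. The standard error is the absolute log2 fold change divided by the square root of F. The study's likelihood ratio test has a batch term that its text does not name, so it served as an alternative without that term and with the replicate number in its place. DESeq2 1.42.0 was a further alternative. Sums and ratios were compared by exact permutation in Python 3.11.15, with 0.1 CPM added to sums and 0.5 counts to ratios. A count of 0 was taken to allow 3 counts over the 3 libraries of a group. Counting intervals are at 95%. Lengths and shared stretches come from GENCODE 44 on hg38, promoters from RefSeq (4 of 7 genes matched). The edgeR quasi-likelihood test was tried on simulated counts, and the permutation code on small made-up sets of values with known answers. The other tests were not tried on simulated data. The limited depth of genes at a few counts sets their precision.

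The replicate numbers shared by the LNCaP groups were checked. The correlation of their deviations from group means (10910 genes) was 0.16, 0.23 and 0.20 between DHT and vehicle libraries of the same number. It was -0.25 to 0.09 between those of different numbers. Same-numbered PC3 and LNCaP libraries gave -0.19 to 0.07. However, PC3 replicate 3 reached 0.22 with DHT replicate 1, and PC3 replicate 2 reached 0.19 with DHT replicate 3. Values of this size therefore do not establish pairs, and no label names any. The main tests use no pairs, and the replicate block for the LNCaP groups is given only as an alternative.

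Named genes are the 7 members in every comparison, every other UGT2 gene, up to 3 called genes with the largest change per list and comparison among those over 3 CPM in every library of a group, the 2 most similar genes per member, and protein-coding neighbours within 500 kb. The 7 genes and the lists were chosen with earlier results of these data known. UGDH, ABCC5 and the luminal markers KRT8, KRT18, TMPRSS2 and FOLH1 were named after their values were seen.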

Additional observations from a re-analysis of the deposited data

Results flagged for a closer look

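The strand column that the count table does not use held a few reads at 2 of the genes that rose, more than in the vehicle controls. UGT2B11 had 45 counts on its opposite strand over the 3 DHT libraries (27, 9 and 9) and 0 over the vehicle libraries, beside 26908 and 643 counts on its own strand. UGT2B28 had 33 (17, 8 and 8) with DHT and 8 with vehicle, beside 10556 and 75. Genes that fell showed the reverse, with 22 opposite-strand counts with vehicle and 1 with DHT for UGT2B17, and 12 and 1 for UGT2B15. Relative to its own strand, UGT2B28 had more opposite-strand counts with vehicle than with DHT. Over whole libraries the opposite strand held 2.33% to 3.06% of the reads on genes. Their source was not tested.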

How the results depend on the processing

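The 5 calls with DHT held under DESeq2 size factors, the DESeq2 test, the likelihood ratio test, unstranded counts, a fit of all 9 libraries and the adjusted p alone, and without the filter the count was 6, UGT2B4 being added. With the replicate block, which treats same-numbered LNCaP libraries as paired, the count was also 5, the log2 fold change of UGT2B17 was -6.11 and that of UGT2B28 6.99, and the summed level differed by 0.51 (exact sign-flip permutation test, p = 0.25, the smallest possible). The block changed no other call. In PC3 the counts of 4 against vehicle and 3 against DHT became 7 and 7 without the filter, and 5 and 5 in the fit of all 9 libraries. Leaving out any 1 library, with the filter kept, gave 4 calls with DHT, 4 or 0 for PC3 against vehicle and 3 or 0 for PC3 against DHT. The counts of 0 came without vehicle replicate 1, 2 or 3, or without DHT replicate 1, 2 or 3, since genes near 0 in PC3 then cannot pass 3 libraries. By the same filter UGT2B28 was lost from the DHT calls without any DHT library and UGT2B10 without any vehicle library. With the filter dropped as well, an alternative chosen after seeing the data, all 5, 4 and 3 genes called were called again without each library, and counting all 7 genes these fits called 6 with DHT and 6 to 7 in each PC3 comparison. UGT2B7 changed sign with DHT in leave-one-out fits without the filter, where the 6 values ran from -0.53 to 0.25 (the 4 above 0 were 0.20, 0.13, 0.25 and 0.10), and in PC3 its call at -2.53 and -2.50 was lost in 3 and 4 of 6 such fits. Sums and ratios kept their direction in all 44 alternatives, none of which could pass 0.05 with so few libraries. The summed level with DHT dropped from a difference of 0.51 to 0.21 with unstranded counts (exact permutation test, p = 0.4), where UGT2B11 had fewer counts. It dropped to 0.37 without DHT replicate 1 (exact permutation test, p = 0.2). Scaling by DESeq2 in place of TMM moved the median of all genes by less than 0.1. Depth limits UGT2B7, UGT2B4 and all PC3 values, which rest on few counts.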
